A study of Homo sapiens with 17 samples.

Results

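The 32 genes described here encode the proteins that license and fire replication origins, and they were taken as a named list whose positions came from RefSeq on hg38. They were set among 38151 protein-coding and lncRNA genes in peak lists from HCC1954, an established HER2-positive human breast cancer cell line. By role the list held 7 genes for the MCM2-7 helicase and its binding partner MCMBP, 2 for MCM8 and MCM9, 9 for loading (ORC1 to ORC6, CDC6, CDT1 and GMNN) and 14 for activation. Cells had been transfected with antisense oligonucleotides and were fixed 72 hours later. The tested arm is labelled Si1235 and the arm it was set against NC1235. The labels do not spell out these names; LINC01235, a long non-coding RNA, appears in the title of the series. Chromatin immunoprecipitation and sequencing (ChIP-seq) was done with 2 libraries per arm for H2AZ (a variant histone), H3K27ac and H3K36me3, and with 1 per arm for H3K9ac. The remaining list came from ChIRP (chromatin isolation by RNA purification, in which antisense probes pull down an RNA together with the DNA close to it), from 1 library named NC1235 whose captured RNA the labels do not state. Whether replicates were separate cultures is not stated either, so every p-value reflects variation among these libraries only, and that may be technical.

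Origins are licensed when the origin recognition complex ORC, with CDC6 and CDT1, loads the MCM2-7 helicase onto DNA in an inactive form, and geminin (GMNN) keeps CDT1 from loading it again within the same cycle. Origins fire when the kinases CDC7, bound to DBF4 or DBF4B, and CDK let TOPBP1, TICRR, MTBP, RECQL4 and DONSON bring CDC45 and the GINS complex to the loaded helicase, with MCM10 acting as the helicase starts to move. Many of these genes are known targets of E2F transcription factors. Active gene starts carry H2AZ, H3K27ac and H3K9ac, while H3K36me3 is laid down along genes as they are transcribed.

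H2AZ lists counted 42759 to 51229 peaks per library. H3K27ac lists counted 44836 to 48391 and H3K36me3 lists 67302 to 81320. H3K9ac had 60035 in Si1235 and 59945 in NC1235, and ChIRP had 128273. Read depth is not given in the lists. The fold enrichment and −log10 p of the 1500 weakest peaks of each library could be traced to a whole number of reads for 97.5 to 99.8% of peaks in 13 libraries, but for 5.4 and 3.8% of peaks in NC1235 H3K27ac replicates 1 and 2. A tolerance of 0.01 in −log10 p was used. Only a limited range of whole numbers was tried, with 1 formula. Scaled reads can give read numbers that are not whole, but a number outside that range would also go untraced. Why these 2 lists differ was not tested. For H3K27ac the arm and this difference between the lists cannot be told apart. At the gene starts of the epithelial markers ERBB2, GRB7, EPCAM, KRT8, KRT18 and CDH1, H3K27ac peaks covered 69.3 to 100% of the window in the 4 libraries. PTPRC, PECAM1 and PDGFRB, markers of immune, endothelial and fibroblast cells, had no H3K27ac cover in any of them. The immune marker CD3E had 57.25 and 52.4% in Si1235 and 23.2 and 24.05% in NC1235, CDH5 (endothelial) 8.95 and 38.55% in Si1235 and 27.65 and 6.05% in NC1235, and COL1A1 (fibroblast) 14.25 and 14.1% in Si1235 and 14.25 and 11.75% in NC1235, and the part of these levels in the results was not tested.

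RefSeq promoters (GRCh38.p14, 250 bases before to 50 bases after the start) were matched for 26 of the 32 genes. They were searched on both strands for the E2F words TTTCCCGC, TTTCGCGC, TTTGCCGC and TTTGGCGC, the CCAAT box CCAAT, the cell cycle homology region (CHR) words TTTGAA and TTCGAA, the GC box GGGCGG and the ETS word CCGGAAG. An E2F word lay in 12 of the 26 promoters (46.2%), beside 704 of all 15812 coding-gene promoters of the same length (4.45%). The 12 were MCM2, MCM3, MCM6, MCM7, MCM8, ORC3, CDC6, CDT1, GINS1, GINS2, GINS3 and TOPBP1. A CCAAT box lay in 14 promoters (53.8%, beside 36.4% of all), a GC box in 19 (73.1%, beside 58.3%), an ETS word in 4 (15.4%, beside 14.1%) and a CHR word in 2, MCM6 and DBF4 (7.69%, beside 13.5%). Median GC content was 60.7% in the 26 promoters and 62.7% in all. These matches describe letters in a window and do not show binding.

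Of the promoters below, MCM2, MCM3, MCM6 and MCM7 show the E2F words of the helicase genes, CDC6 is the start that carried a strong ChIRP peak, and MCM10 and DBF4B are the 2 starts where H3K9ac cover differed by at least 20 points. Capitals mark E2F, CCAAT and CHR words on either strand, and each sequence runs 5′ to 3′ on the strand of its gene (MCM2 chr3:127598161-127598460, plus strand; MCM3 chr6:52284693-52284992, minus strand; MCM6 chr2:135876394-135876693, minus strand; MCM7 chr7:100101348-100101647, minus strand; CDC6 chr17:40287629-40287928, plus strand; MCM10 chr10:13161308-13161607, plus strand; DBF4B chr17:44708415-44708714, plus strand).
MCM2: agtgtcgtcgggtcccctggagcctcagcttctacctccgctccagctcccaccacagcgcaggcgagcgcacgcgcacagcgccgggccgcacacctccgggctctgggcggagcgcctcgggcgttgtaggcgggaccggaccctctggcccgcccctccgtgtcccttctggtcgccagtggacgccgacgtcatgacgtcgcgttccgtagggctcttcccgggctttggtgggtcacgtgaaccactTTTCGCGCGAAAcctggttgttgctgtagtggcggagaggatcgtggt
MCM3: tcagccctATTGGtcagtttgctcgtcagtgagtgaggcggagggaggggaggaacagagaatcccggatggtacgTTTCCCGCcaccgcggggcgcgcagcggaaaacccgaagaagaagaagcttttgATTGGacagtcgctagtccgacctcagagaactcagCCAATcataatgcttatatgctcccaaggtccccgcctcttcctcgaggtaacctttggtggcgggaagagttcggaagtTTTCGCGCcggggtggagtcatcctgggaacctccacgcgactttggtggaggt
MCM6: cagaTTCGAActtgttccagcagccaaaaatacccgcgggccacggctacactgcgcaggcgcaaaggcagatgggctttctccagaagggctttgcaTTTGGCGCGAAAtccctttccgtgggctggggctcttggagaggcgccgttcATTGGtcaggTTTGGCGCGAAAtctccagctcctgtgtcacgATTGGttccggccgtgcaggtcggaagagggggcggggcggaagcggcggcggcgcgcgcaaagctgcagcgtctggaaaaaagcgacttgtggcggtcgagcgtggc
MCM7: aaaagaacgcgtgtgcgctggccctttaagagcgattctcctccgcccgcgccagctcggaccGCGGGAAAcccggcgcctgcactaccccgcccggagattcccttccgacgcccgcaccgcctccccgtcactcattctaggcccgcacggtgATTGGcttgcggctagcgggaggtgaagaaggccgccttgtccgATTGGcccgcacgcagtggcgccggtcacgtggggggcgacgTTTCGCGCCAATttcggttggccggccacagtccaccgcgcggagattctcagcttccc
CDC6: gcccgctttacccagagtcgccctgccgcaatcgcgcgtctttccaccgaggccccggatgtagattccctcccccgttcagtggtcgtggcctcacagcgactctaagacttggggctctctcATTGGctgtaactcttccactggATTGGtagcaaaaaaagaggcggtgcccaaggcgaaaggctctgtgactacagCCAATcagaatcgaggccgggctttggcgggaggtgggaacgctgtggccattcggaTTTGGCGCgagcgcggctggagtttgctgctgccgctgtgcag
MCM10: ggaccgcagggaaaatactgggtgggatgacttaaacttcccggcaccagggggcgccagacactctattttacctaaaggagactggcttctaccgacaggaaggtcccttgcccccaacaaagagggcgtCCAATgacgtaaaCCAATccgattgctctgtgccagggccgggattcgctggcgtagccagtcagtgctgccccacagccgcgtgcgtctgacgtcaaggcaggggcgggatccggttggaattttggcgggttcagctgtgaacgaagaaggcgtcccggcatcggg
DBF4B: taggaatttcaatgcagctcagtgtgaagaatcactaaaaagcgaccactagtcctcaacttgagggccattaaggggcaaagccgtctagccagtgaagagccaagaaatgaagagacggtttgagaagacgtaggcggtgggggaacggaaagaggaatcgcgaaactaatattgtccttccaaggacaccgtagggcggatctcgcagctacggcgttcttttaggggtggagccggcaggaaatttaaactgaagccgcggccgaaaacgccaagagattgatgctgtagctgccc
In MCM2 and MCM6 the capitals hold E2F words of both strands run into each other, at the start itself in MCM2 and at 2 places upstream in MCM6. MCM10 held CCAAT boxes and no E2F word, and DBF4B held none of the capitalised words.

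Nearly every gene of the list carried the marks of an active start in both arms. The measure was the percent of the window from 1 kb before to 1 kb after the gene start that lay under the authors' peaks. All 32 genes had an H2AZ peak in the window in every library (52.4% of all 31388 genes with a window did). In every library 31 had an H3K27ac peak (beside 46.5% of all genes) and 32 an H3K9ac peak (beside 54.3%). The exception was MCM10 for H3K27ac. For H2AZ, H3K27ac and H3K9ac, the genes with a window and the genes tested include lncRNA genes, while the 32 all code for proteins. The part of this in the gaps to all genes was not tested. Median H2AZ cover over the 32 genes was 86.2 and 81.35% in the Si1235 libraries, against 86.2 and 82.3% in the NC1235 libraries, beside 75.5 and 68.25% (Si1235) and 72.85 and 66.25% (NC1235) over all genes tested. For H3K27ac the medians were 73.95 and 74.3% in Si1235, against 77.85 and 77.2% in NC1235, beside 75.05 and 72.35% (Si1235) and 73.15 and 72.3% (NC1235) over all genes. H3K9ac had a median of 95.5% in Si1235 and 97.1% in NC1235, beside 82.75 and 83.8% over all genes.

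**Figure D1:**
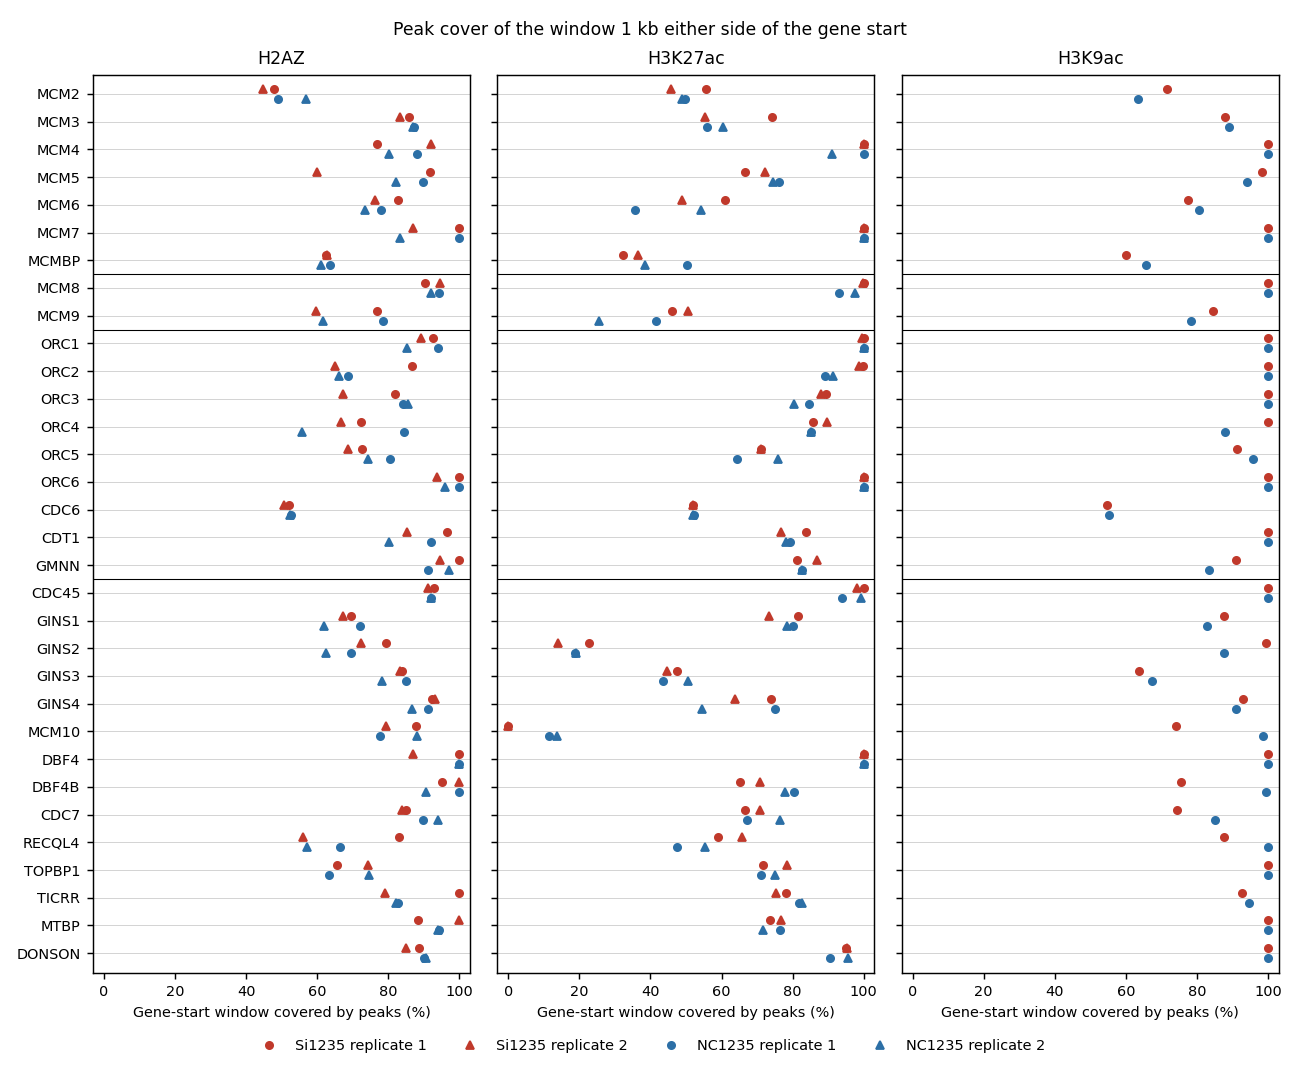
Percent of the whole window from 1 kb before to 1 kb after the gene start covered by peaks of H2AZ, H3K27ac and H3K9ac, for each of the 32 genes in each library. Each point is 1 library (red Si1235, blue NC1235, circle replicate 1, triangle replicate 2) and lines separate the roles; MCM10 H3K27ac sits at 0 in both Si1235 libraries and at 11.6 and 13.65% in the NC1235 libraries.

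Levels differed widely between genes of the list. MCM7, ORC6 and DBF4 had the whole H3K27ac window covered in all 4 libraries, and MCM4, MCM8, ORC1, CDC45 and DONSON were above 90% in all 4. GINS2, a GINS subunit, stood at the other end among genes with a peak in every library, with 22.75 and 14.15% in Si1235 and 18.7 and 19.15% in NC1235. GINS2 H2AZ cover was 79.4 and 72.35% in Si1235, against 69.5 and 62.55% in NC1235, and its H3K9ac cover was 99.45% in Si1235 and 87.6% in NC1235. Its start thus held H2AZ and H3K9ac with little H3K27ac. For H3K9ac, 13 of the 32 starts were covered whole in both arms: MCM4, MCM7, MCM8, ORC1, ORC2, ORC3, ORC6, CDT1, CDC45, DBF4, TOPBP1, MTBP and DONSON. The lowest H3K9ac cover was 54.55% in Si1235 and 55.25% in NC1235, both at CDC6.

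At CDC6 the cover near 50% came from the downstream side. In the 1 kb upstream of its start, H3K27ac covered 3.9 and 4.0% in Si1235 and 4.6 and 4.2% in NC1235, while the 1 kb downstream was covered whole in all 4 libraries. The upstream edge of the CDC6 H3K27ac peak lay at 40287840 and 40287839 on chromosome 17 in Si1235 and at 40287833 and 40287837 in NC1235, next to the start at 40287879. H2AZ at CDC6 was cut at the same place, with 4.2 and 1.1% upstream in Si1235, 5.4 and 4.6% upstream in NC1235, and 100% downstream in all 4 libraries. MCMBP and GINS3 were also covered mainly downstream: H3K27ac upstream was 7.4 and 0% in Si1235 and 0.3 and 1.0% in NC1235 at MCMBP, and 15.2 and 15.6% in Si1235 and 11.8 and 9.2% in NC1235 at GINS3.

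Another coding gene started within 1 kb of the start in 13 of the 32 genes (40.6%), beside 15.6% of 18406 coding genes. The pairs were MCM2 with TPRA1 (180 bp between starts), MCM4 with PRKDC (805), MCM7 with AP4M1 (603), MCM8 with TRMT6 (119), ORC1 with PRPF38A (179), ORC3 with RARS2 (148), ORC4 with MBD5 (540), ORC6 with VPS35 (481), CDC45 with UFD1 (273), DBF4 with SLC25A40 (133), RECQL4 with LRRC14 (159), TOPBP1 with TF (57) and MTBP with MRPL13 (269). Upstream H3K27ac in these 13 had a median of 100 and 99.6% in the Si1235 libraries and of 100% in both NC1235 libraries. In the other 19 genes it was 46.4 and 50.3% in Si1235 and 51.3 and 51.9% in NC1235. Over all coding genes tested the same split gave 100 and 93.95% (Si1235) and 96.4 and 92.6% (NC1235) with a neighbour, and 61.6 and 57.7% (Si1235) and 58.7 and 57.1% (NC1235) without. Peaks at these shared starts belong to both genes, and the lists cannot assign them to either.

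**Figure D2:**
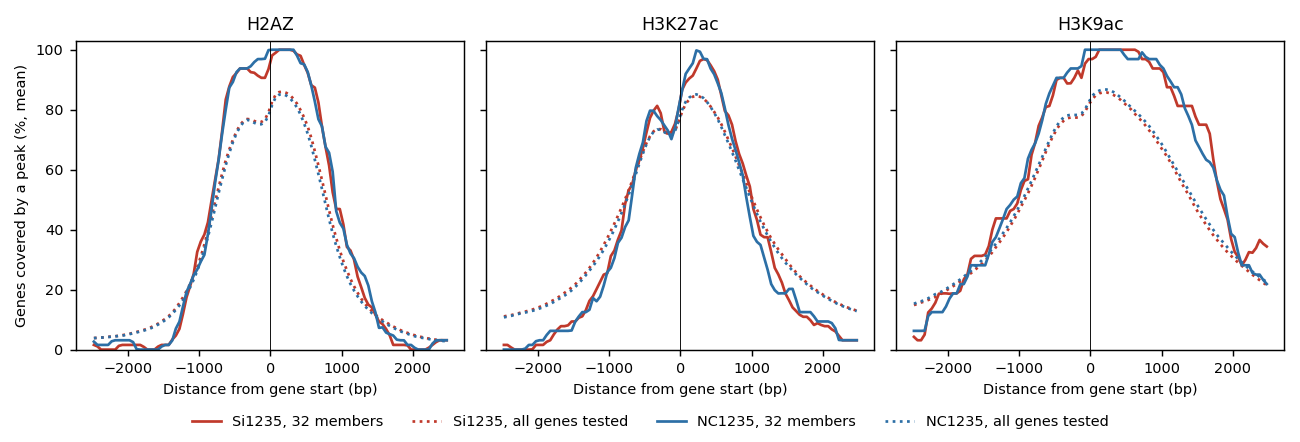
Mean percent of genes under a peak in 50 bp bins by distance from the gene start in bp (upstream negative), for H2AZ, H3K27ac and H3K9ac; solid lines are the 32 genes, dotted lines all genes tested, red Si1235 and blue NC1235, averaged over libraries. At 125 bp downstream H3K27ac reached 90.4% of the 32 genes in Si1235 and 93.8% in NC1235, beside 83.4 and 84.0% of all genes.

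Along the profile, the 32 genes and all genes tested, which include lncRNA genes, lay far apart on the downstream side for H3K9ac. At 975 bp downstream, H3K9ac peaks lay over 93.8% of the 32 genes in Si1235 and 94.9% in NC1235, beside 68.0 and 69.5% of all genes. H3K27ac was narrower there, with 54.4% of the 32 genes in Si1235 and 44.2% in NC1235, beside 52.4 and 50.9% of all genes. No test was made of these differences from other genes, and no profile was made for coding genes alone. Over all coding genes tested, median H3K9ac cover of the 1 kb downstream was 100% in both arms, with or without a neighbour. It was also 100% in the 32 genes, and cover cannot go higher.

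H3K36me3 cover of the gene bodies was read from start to end of each gene. All 32 genes held an H3K36me3 peak in every library, beside 49.3% of 18727 coding genes of at least 2 kb. Median body cover of the 32 genes was 62.7 and 53.2% in Si1235 and 63.0 and 52.6% in NC1235, beside 44.8 and 38.6% (Si1235) and 44.7 and 35.25% (NC1235) over the 8351 genes tested. Cover built up within the genes: of 10 equal bins from the start, bin 1 had a mean of 17.7% in Si1235 and 17.4% in NC1235, and bin 3 had 59.2 and 56.15%. In bins 6, 7 and 8 the means were 57.4, 57.4 and 55.1% in Si1235 and 60.6, 62.4 and 61.65% in NC1235. Over the 8251 genes of the profile those bins had 51.7, 54.3 and 56.7% in Si1235 and 50.4, 53.4 and 55.3% in NC1235. Bins 6, 7 and 8 were picked from the 10. In the 32 genes the mean was higher in Si1235 in bins 1, 3, 4 and 5 and lower in the others. In bin 7 replicate 1 had 59.9% in Si1235 and 68.7% in NC1235, while replicate 2 had 55.0 and 56.0%.

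**Figure D3:**
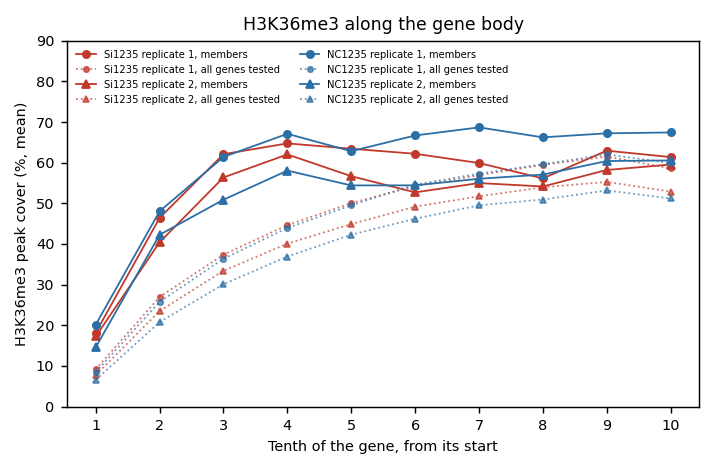
Mean H3K36me3 peak cover (percent) in 10 equal bins along the gene body, counted from the gene start, in each library; solid lines are the 32 genes, dotted lines 8251 genes tested, red Si1235, blue NC1235. In the 32 genes Si1235 replicate 1 lies below NC1235 replicate 1 from bin 6 on, with 56.1% against 66.2% in bin 8, while the replicate 2 libraries had 54.1 and 57.1% there.

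The helicase genes MCM3 and MCM4 were the 2 with more than 90% of the body covered in all 4 libraries, at 91.9 and 92.25% in Si1235 and 93.05 and 91.85% in NC1235 for MCM3, and 93.5 and 93.6% in Si1235 and 93.6 and 91.9% in NC1235 for MCM4. TICRR, which brings TOPBP1 to loaded helicase, had 90.9 and 89.4% in Si1235 and 94.15 and 93.25% in NC1235, with 20.4% of its body overlapping KIF7. At the low end GINS3 had 5.22 and 6.89% in Si1235 and 13.0 and 6.07% in NC1235, and ORC4 had 13.0 and 12.4% in Si1235 and 14.3 and 9.8% in NC1235. The 10 genes under 50% in every library were MCM9, ORC3, ORC4, ORC5, GINS1, GINS3, MCM10, DBF4B, CDC7 and MTBP. Longer genes tended to have less of their body covered, with a Spearman rho between length and mean cover of −0.38 across the 32 genes and −0.24 across the 8351 tested, where genes share libraries and are not replicates. Cover is a share of each gene's own length.

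The arms were compared with limma on percent cover, Si1235 minus NC1235, with p-values adjusted by the Benjamini-Hochberg method over all genes of a mark and a threshold of 0.05. None of the 32 genes passed for any mark, although all 32 were tested in each. For H2AZ limma called 0 of 17477 genes (0%), with 1039 at an unadjusted p under 0.05 (5.94%), among them 1 of the 32, CDC7, which was lower in Si1235 (beside 1.97% of all genes). For H3K27ac limma called 80 of 15515 genes (0.516%), 37 higher (0.238%) and 43 lower (0.277%) in Si1235, and 0 of the 32. An unadjusted p under 0.05 was reached by 2184 genes (14.1%) and by 3 of the 32: ORC2, which was higher in Si1235 (beside 8.36% of all), and MCM10 and DBF4B, which were lower (beside 5.72%). Of these, MCM10 passed the filter of 5% mean cover through its NC1235 libraries alone. For H3K36me3 limma called 0 of 8351 genes (0%), with 663 at an unadjusted p under 0.05 (7.94%) and 4 of the 32: RECQL4, which was higher in Si1235 (beside 5.51% of all), and MCM6, GMNN and MTBP, which were lower (beside 2.43%). Leaving out NC1235 replicate 1 made MCM4 a call for H3K27ac, among 322 genes called, and leaving out Si1235 replicate 1 made MCM6 a call for H3K36me3, with a limma adjusted p of 0.0373 (0.0373 to 1.0 over its alternatives), among 49 called. In these reduced fits the lone library was assumed to vary like the other arm.

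Counts of genes whose arms did not overlap, in either direction, stood near the share over all genes for H2AZ and H3K27ac. For H2AZ the arms were apart at 9 of the 32 genes (28.1%, beside 31.6% of all tested), with 2 higher in Si1235 (GINS2 and GINS4, 6.25% beside 20.8% of all) and 7 lower (MCM2, MCM3, ORC3, ORC5, CDC6, CDC7 and DONSON, 21.9% beside 10.7%). The H2AZ split by direction was thus not near that of all genes, and it was not tested. For H3K27ac they were apart at 12 genes (37.5%, beside 40.9%), 6 higher (MCM8, MCM9, ORC2, ORC3, ORC4 and RECQL4, 18.8% beside 23.2%) and 6 lower (MCM5, MCMBP, CDC6, MCM10, DBF4B and TICRR, 18.8% beside 17.7%). For H3K36me3 they were apart at 13 genes (40.6%, beside 34%), 4 higher (ORC6, CDT1, DBF4B and RECQL4, 12.5% beside 20.3%) and 9 lower (MCM6, MCM7, CDC6, GMNN, GINS4, DBF4, CDC7, TICRR and MTBP, 28.1% beside 13.7%). Arms apart by at least 10 points were seen at 1 of the 32 genes for H2AZ (beside 12.5% of all) and at 5 for H3K27ac (beside 16.3%), and arms apart by at least 5 points at 8 genes for H3K36me3 (beside 23%). For H3K9ac, with 1 library per arm, 8 genes had more cover in Si1235 (beside 32.7% of all), 11 had less (beside 42.6%) and 13 were equal. Those 13 were covered whole in both arms, where cover cannot show a difference in signal. In H3K36me3 the median difference over the 32 genes was −1.69 points (0.69 over all genes tested), in H3K27ac 1.19 (0 over all) and in H2AZ 0.3 (1.2 over all). Leaving out 1 library at a time moved the H3K36me3 median between −5.58 and 1.65 points and the H2AZ median between −2.17 and 2.22, so both signs rest on which libraries are used. The medians over all genes moved too. For H3K36me3 they were −1.91 beside −5.58 and 3.54 beside 1.65. For H2AZ they were −0.65 and −0.95 beside −2.17 and 3.88 beside 2.22. The median of the 32 genes lay below that of all genes in each such fit of these marks, and this gap was not tested. With quantile normalization the H2AZ median was −1.55 (−0.04 over all genes). CDC6 was the one gene of the list with its arms apart in the same direction for all 3 marks, beside 152 of 7637 genes tested for all 3 (1.99%). It was lower in Si1235 for H2AZ, H3K27ac and H3K36me3, with differences of −1.17, −0.23 and −4.14 points and standard errors of 3.12, 1.01 and 3.21.

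**Figure D4:**
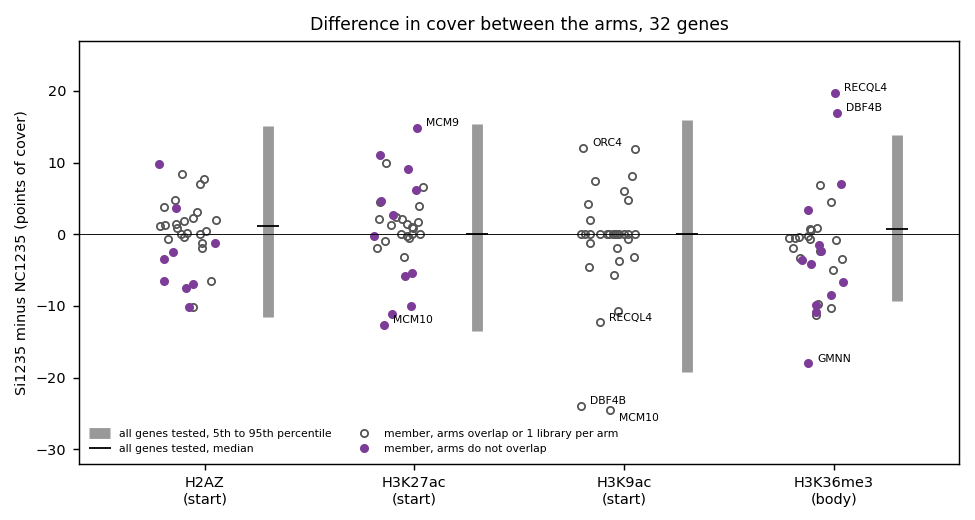
Difference in peak cover between the arms (Si1235 minus NC1235, in percentage points) for each of the 32 genes and each mark; filled points are genes whose arms do not overlap, open points genes whose arms overlap or, for H3K9ac, 1 library per arm. Grey bars span the 5th to the 95th percentile over all genes tested; RECQL4 and DBF4B lie above the H3K36me3 bar, and GMNN lies farthest below it.

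No difference among the helicase genes passed the test. Arms were apart, with Si1235 lower, at MCM2 and MCM3 for H2AZ, at MCM5 and MCMBP for H3K27ac and at MCM6 and MCM7 for H3K36me3. MCM6, a helicase subunit, had an H3K36me3 body cover of 83.5 and 73.5% in Si1235, against 90.9 and 85.95% in NC1235. The arms did not overlap, with Si1235 lower, and the means were 78.5 ± 7.08% and 88.4 ± 3.51% (SD, n = 2 each). The difference of −9.92 points (SE 3.70) had a limma adjusted p of 0.556, and it was −4.91 points without Si1235 replicate 2 and −14.9 without Si1235 replicate 1. With the MCM6 body cut into 10 equal bins from the start, bin 1 was covered to 1.09 and 0.57% in Si1235 and to 18.7 and 10.1% in NC1235, and bin 10 to 63.0 and 49.8% in Si1235 and to 90.5 and 83.5% in NC1235. MCMBP, which binds MCM proteins, had an H3K27ac cover of 32.35 and 36.4% in Si1235, against 50.2 and 38.55% in NC1235. The arms of MCMBP did not overlap, and the difference of −10.0 points (SE 5.25) had a limma adjusted p of 0.588 and was −4.18 points without NC1235 replicate 1 and −15.8 without NC1235 replicate 2. With a window of 500 bp either side the MCMBP difference was 1.25 points. The strongest peak was 2136 bp wide in NC1235 replicate 1 and 510 to 647 bp wide in the other 3 libraries. At the MCM6 start H2AZ differed by 3.8 points and H3K27ac by 9.98, and the arms overlapped. The other helicase genes, MCM2, MCM3, MCM4, MCM5 and MCM7, differed by −10.2 to 1.83 points for H2AZ, by −5.83 to 6.65 for H3K27ac and by −2.37 to 0.82 for H3K36me3, with limma adjusted p of 0.604 or above.

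MCM9, which with MCM8 forms a helicase used in recombination repair, had the largest H3K27ac difference of the list. Its cover was 46.2 and 50.7% in Si1235, against 41.65 and 25.55% in NC1235, so the arms did not overlap and NC1235 replicate 2 stood lowest. The difference of 14.85 points (SE 7.07) had a limma adjusted p of 0.547 and was 6.8 points without NC1235 replicate 2 and 22.9 without NC1235 replicate 1. Upstream of the MCM9 start, NC1235 replicate 2 had no H3K27ac cover and the other 3 libraries had 31.4 to 43.3%. MCM8 H3K27ac cover was 100 and 99.8% in Si1235, against 92.95 and 97.5% in NC1235, a difference of 4.68 points (SE 1.91, limma adjusted p = 0.483). H2AZ at both genes and H3K36me3 over both overlapped between the arms.

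Of the loading genes, ORC3 had the one H2AZ difference of at least 10 points with arms apart (12.5% of all genes tested had one, beside 1 of the 32). ORC3, a core subunit of ORC, was covered to 82.0 and 67.4% in Si1235, against 84.15 and 85.6% in NC1235. The difference of −10.2 points (SE 6.34) had a limma adjusted p of 0.904, was 0 with a window of 500 bp either side, was −17.5 without Si1235 replicate 1 and was −2.88 points without Si1235 replicate 2, which stood apart from the other 3 libraries. H3K27ac at ORC3 went the other way, at 89.3 and 88.0% in Si1235 and 84.5 and 80.5% in NC1235 (6.15 points, SE 1.94, limma adjusted p = 0.368). ORC2, named here after its values were seen, had the smallest p of the list: H3K27ac covered 99.65 and 98.7% in Si1235, against 88.95 and 91.25% in NC1235. The ORC2 difference of 9.08 points (SE 1.05) had an unadjusted p of 0.004, ranked 482 of 15515 genes, and a limma adjusted p of 0.129. ORC1, ORC4, ORC5, ORC6, CDC6, CDT1 and GMNN differed by −0.23 to 2.7 points for H3K27ac.

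GMNN, the inhibitor of CDT1, had the lowest H3K36me3 difference of the list. Peaks covered 42.3 and 27.5% of its body in Si1235, against 57.05 and 48.8% in NC1235, so Si1235 was lower with no overlap. The means were 34.9 ± 10.5% and 52.9 ± 5.85% (SD, n = 2 each), and the difference of −18.0 points (SE 7.47) was at the 0.8th percentile of all genes tested, with a limma adjusted p of 0.614. It was −10.6 points without Si1235 replicate 2 and −25.4 without Si1235 replicate 1. The first 2 of 10 body bins of GMNN had no cover in any library, and bin 10 was covered to 67.3 and 49.15% in Si1235 and to 100% in both NC1235 libraries. At the GMNN start H2AZ covered 100 and 94.55% in Si1235 and 91.3 and 97.1% in NC1235, with no separation of the arms. ORC6 H3K36me3 was 71.6 and 68.35% in Si1235, against 62.7 and 63.15% in NC1235, with a difference of 7.04 points (SE 4.29, limma adjusted p = 0.781). CDT1, which GMNN binds, had 78.9 and 80.6% in Si1235 and 78.3 and 74.4% in NC1235, a difference of 3.41 points (SE 2.99, limma adjusted p = 0.900).

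MCM10 was the gene of the list whose H3K27ac peak was listed in 1 arm alone. Its window had 0% in both Si1235 libraries, against 11.6 and 13.65% in the NC1235 libraries. The NC1235 peaks were narrow and weak, at chromosome 10: 13161605–13161836 (232 bp, the authors' fold enrichment 6.22) and 13161588–13161860 (273 bp, 8.61), at the 26.7th and 43.1st percentile of fold in their lists. The difference of −12.6 points (SE 2.41) had a limma adjusted p of 0.210. MCM10 passed the filter of 5% mean cover through its NC1235 libraries alone, so this p gives no support for a difference. H2AZ at MCM10 covered 87.9 and 79.45% in Si1235, against 77.7 and 87.95% in NC1235, and overlapped between the arms. H3K9ac covered 73.95% in Si1235 and 98.45% in NC1235, with a peak at 13160914–13162392 in Si1235 and 13160541–13162526 in NC1235. The start therefore kept H2AZ and H3K9ac peaks in both arms. The arm with the H3K27ac peak is also the arm whose H3K27ac lists could mostly not be traced to whole read numbers. MCM10 H3K36me3 was 26.98 and 23.6% in Si1235 and 47.0 and 24.2% in NC1235, where NC1235 replicate 1 alone stood high.

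Only MCM10 and DBF4B differed by at least 20 points for H3K9ac, which had 1 library per arm and so no test (2 of the 32, both lower in Si1235, beside 4.63% of 17938 genes lower, 3.07% higher and 7.7% in either direction). DBF4B, an activator of CDC7, had an H3K9ac cover of 75.45% in Si1235 and 99.4% in NC1235, a difference of −23.95 points. The DBF4B H3K9ac peak lay at chromosome 17: 44708156–44710757 in Si1235 and 44707677–44710060 in NC1235, and thus reached less far upstream and farther downstream in Si1235. Within 500 bp of the start the H3K9ac peaks of MCM10 and DBF4B spanned the whole window in both arms. The differences of 0 there are at the upper limit of the measure and do not show equal acetylation. Within 2500 bp the difference was −10.1 points at MCM10 and 4.36 at DBF4B. H3K27ac at DBF4B covered 65.3 and 70.7% in Si1235 and 80.5 and 77.85% in NC1235. The difference was −11.2 points (SE 3.24, limma adjusted p = 0.340). The H3K27ac peak started at 44708212 and 44708143 in Si1235 and at 44707991 and 44708058 in NC1235. It thus reached less far upstream in both Si1235 libraries, but its NC1235 edges lay closer to the start than the H3K9ac edge. H3K27ac cover was lower in both Si1235 libraries downstream too, where H3K9ac covered the 1 kb whole in both arms. For H3K27ac the arm and the difference between the lists in traceable read numbers cannot be told apart. H2AZ covered the whole 1 kb upstream of DBF4B in all 4 libraries.

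Over its body DBF4B went the other way. H3K36me3 covered 49.1 and 42.6% in Si1235, against 36.4 and 21.35% in NC1235, and the difference of 17.0 points (SE 7.20) lay at the 96.9th percentile of all genes, with a limma adjusted p of 0.628. It was 9.47 points without NC1235 replicate 2 and 24.5 without NC1235 replicate 1. Bin 5 of 10 of the DBF4B body was covered to 93.4 and 75.7% in Si1235 and to 49.4 and 19.2% in NC1235. DBF4, the other activator, had 68.1 and 61.05% in Si1235, against 74.0 and 68.5% in NC1235, a difference of −6.67 points (SE 4.68, limma adjusted p = 0.841) that was −3.13 without Si1235 replicate 2, −3.92 without NC1235 replicate 1 and −10.2 without Si1235 replicate 1. CDC7, the kinase that both bind, had 17.4 and 11.2% in Si1235, against 27.8 and 17.7% in NC1235, a difference of −8.47 points (SE 4.91, limma adjusted p = 0.768) that was −3.42 without NC1235 replicate 1, −5.37 without Si1235 replicate 2 and −13.5 without NC1235 replicate 2. At the CDC7 start H2AZ covered 84.85 and 83.9% in Si1235 and 89.65 and 93.95% in NC1235, the lowest H2AZ p of the list (−7.43 points, SE 2.26, unadjusted p = 0.0383, limma adjusted p = 0.805). The lncRNA gene LOC105378856 starts 3 bp from CDC7, and the start peaks cannot be assigned between them.

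RECQL4, a RecQ-family protein needed for firing, had the highest H3K36me3 difference of the list. Peaks covered 65.3 and 60.1% of its body in Si1235, against 51.8 and 34.1% in NC1235, so Si1235 was higher with no overlap. The means were 62.7 ± 3.68% and 42.9 ± 12.5% (SD, n = 2 each), and the difference of 19.7 points (SE 7.50) had a limma adjusted p of 0.556. RECQL4 is a short gene of 6.55 kb, and without NC1235 replicate 2, the lowest library, the difference was 10.9 points. H3K27ac at its start was 59.1 and 65.85% in Si1235, against 47.5 and 55.35% in NC1235, a difference of 11.05 points (SE 4.50, limma adjusted p = 0.481) that became −10.3 points within 500 bp of the start and was 7.12 without NC1235 replicate 1. H3K9ac covered 87.7% of the window in Si1235 and 100% in NC1235. MTBP, the partner of TICRR, had an H3K36me3 cover of 19.3 and 17.6% in Si1235, against 30.0 and 28.5% in NC1235. The libraries of each arm lay close together at MTBP, with means of 18.4 ± 1.18% and 29.3 ± 1.06% (SD, n = 2 each), and the difference of −10.9 points (SE 4.46) had a limma adjusted p of 0.610.

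**Figure D5:**
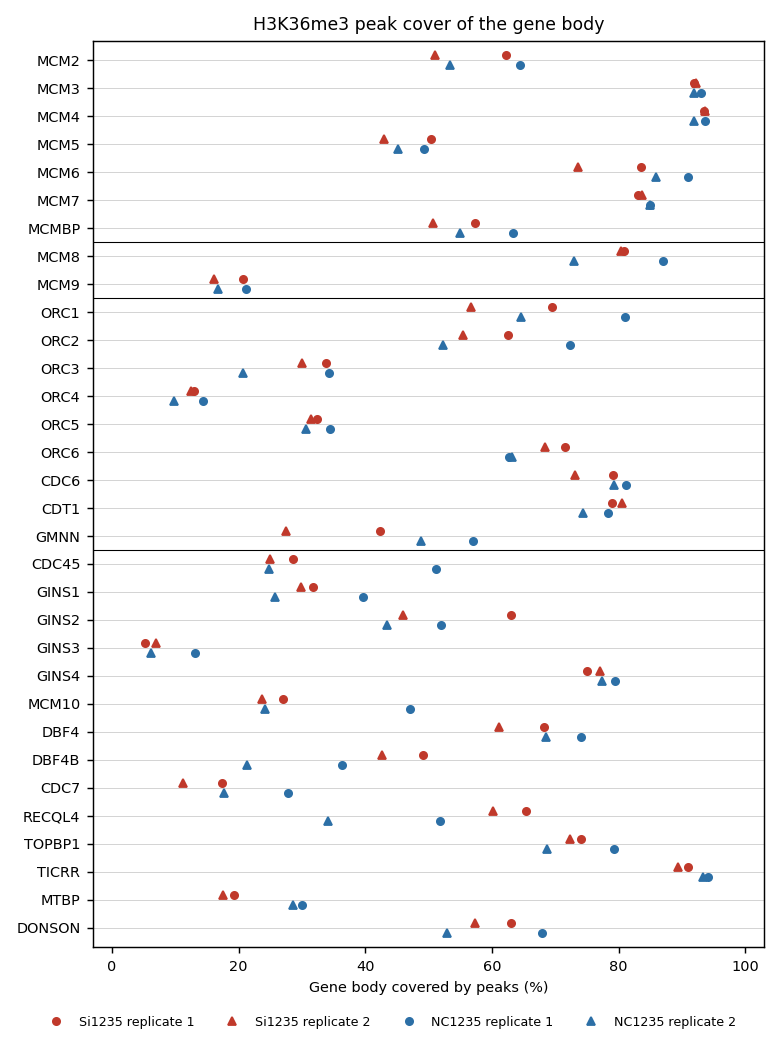
Percent of the gene body covered by H3K36me3 peaks for each of the 32 genes in each library (red Si1235, blue NC1235, circle replicate 1, triangle replicate 2); lines separate the roles. RECQL4 and DBF4B have both Si1235 libraries above both NC1235 libraries, and GMNN and MTBP have both below.

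CDC45 and the GINS genes, whose proteins join the helicase at firing, had overlapping arms in most marks. For H3K27ac CDC45 covered 100 and 98.1% in Si1235 and 93.85 and 99.35% in NC1235. Over the CDC45 body H3K36me3 was 28.6 and 24.9% in Si1235 and 51.15 and 24.8% in NC1235, with NC1235 replicate 1 alone standing high. H2AZ was higher in both Si1235 libraries at GINS2 (9.85 points, SE 5.30) and GINS4 (3.72 points, SE 2.03), with limma adjusted p of 0.904 for both. Over the bodies GINS1, GINS2, GINS3 and GINS4 differed by −3.49 to 6.86 points. GINS2 ends next to GSE1, and a peak of 25987 to 28271 bp that began outside GINS2 reached into its body in each library. The remaining firing genes TOPBP1, TICRR and DONSON differed by −3.58 to −0.28 points for H3K36me3 and by −5.35 to 2.1 points for H3K27ac. The lowest limma adjusted p among those 3 was 0.453, for H3K27ac at TICRR, and their H2AZ differed by −3.42 to 6.97 points.

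ChIRP peaks were described in 1 library with no control library, so occupancy has no background of its own here. Of the 32 genes, 22 held at least 1 ChIRP peak between start and end (68.75%, beside 65.3% of 19974 coding genes and 70.6% of the 13864 within the same length range). They held 54 peaks, or 4.3 per 100 kb, beside 4.79 per 100 kb over all coding genes and 5.09 in the length range. The 10 genes without a peak were MCM4, ORC2, ORC6, CDT1, CDC45, GINS1, GINS3, CDC7, RECQL4 and DONSON. A ChIRP peak lay within 1 kb of the start in 4 genes (12.5%, beside 12.6% of 18406 coding genes): MCM5, MCM8, ORC1 and CDC6. The share of the list thus stood close to that of coding genes by either measure.

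CDC6 had the strongest ChIRP peak at a start, at chromosome 17: 40287667–40288310, which overlaps the CDC6 promoter shown above and had a fold enrichment of 41.7 and −log10 q of 110.0 in the authors' list (93.8th percentile of fold). A further peak at 40286411–40287024 reached the edge of the window, with a fold of 35.8. ORC1 had a peak at chromosome 1: 52404579–52405012 (fold 29.4), with its centre at −373 bp from the start. MCM5 had a peak at chromosome 22: 35400031–35400455 (fold 16.3) over the start itself, and MCM8 at chromosome 20: 5950299–5950548 (fold 9.27). All of these starts carried acetylation in both arms. At MCM5 H3K27ac covered 66.7 and 72.25% in Si1235 and 76.2 and 74.4% in NC1235 (−5.83 points, SE 3.19, limma adjusted p = 0.604). At ORC1 H3K27ac covered 100 and 99.55% in Si1235 and all of the window in NC1235, and H2AZ 92.65 and 89.3% in Si1235 and 94.1 and 85.25% in NC1235. Within genes the peak of highest fold lay in MCM2, at chromosome 3: 127604290–127604989 (fold 73.5, 99.0th percentile), 6229 bp from its start. MTBP held 4 peaks with folds of 48.4, 60.3, 16.0 and 64.5. ORC3 and ORC4 held 5 peaks each, the most in the list, over 87.7 and 91.2 kb, with folds of 5.84 to 39.2 in ORC3 and of 11.75 to 28.5 in ORC4. The ORC4 start had an H3K27ac cover of 85.75 and 89.75% in Si1235, against 85.05% in both NC1235 libraries (2.7 points, SE 1.82, limma adjusted p = 0.680).

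Other genes of the pathway gave no call either. In a list of 27 regulators of licensing and firing, none of the 25 tested for H2AZ, 24 for H3K27ac and 24 for H3K36me3 passed with limma, and an unadjusted p under 0.05 was reached by 0, 1 and 5 of them (beside 5.94, 14.1 and 7.94% of all genes). Their median difference in H3K36me3 was −1.35 points, in H3K27ac −1.19 and in H2AZ 0, beside 0.69, 0 and 1.2 over all genes. H3K36me3 stood lower in both Si1235 libraries at DTL, which marks CDT1 for destruction (39.35 and 32.05% in Si1235, against 59.2 and 55.1% in NC1235, limma adjusted p = 0.427), and at the kinase gene CDK2 (16.6 and 3.76% in Si1235, against 35.3 and 27.01% in NC1235, limma adjusted p = 0.377). In a list of 30 replisome partners, none of the 29, 28 and 26 tested passed with limma, and 1, 4 and 1 had an unadjusted p under 0.05, beside the same shares of all genes. The nearest was TOP1, a topoisomerase gene, with H3K27ac at 91.45 and 93.7% in Si1235 and 74.3 and 73.95% in NC1235 (18.45 points, limma adjusted p = 0.0856). POLD1, the catalytic subunit of polymerase delta, differed by 19.5 points for H3K27ac (limma adjusted p = 0.323), and RFC3, a clamp loader gene, by −16.4 points for H2AZ (limma adjusted p = 0.722). H2AZ arms were apart at 7 of the 29 replisome partners, 5 higher in Si1235 and 2 lower (beside 31.6, 20.8 and 10.7% of all genes). Among the 5 were CLSPN (15.6 points, limma adjusted p = 0.868) and PRIM1 (12.7 points, limma adjusted p = 0.904).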

How the data were processed

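The authors deposited 15 MACS2 peak lists, each from a single library; the submitters' processing notes name Bowtie2 2.2.9, MACS2 and hg38, and also HTSeq 2.0.3 and DESeq2 1.22.2 without a stated use. Each deposited list gives peak coordinates, an enrichment as a linear fold ratio, and its p-value and q-value as −log10; the lowest deposited −log10 q was 2.00029. MACS2 settings and the control used are not given in the sources used here, and the 2 input samples were not analysed here. The deposited peak names in the H3K9ac lists carry another residue name, and the labels were followed.

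Peaks on chromosomes 1 to 22 and X were intersected with RefSeq genes of GRCh38.p14. The gene start was the most upstream start in the RefSeq promoter table. For genes missing there (6 of the 32: MCM4, MCM5, GINS4, MTBP, RECQL4 and DONSON) it was the gene end with more peak cover of the other start marks, a rule that gave the table's end for 89.71 to 90.1% of genes. Percent cover was computed in Python 3.11.15 and tested with limma 3.58.1 in R 4.3.3, with a trend and no replicate term, wherever mean cover reached 5%. The fit was tested on simulated data: it recovered the moved genes where libraries varied little, but called none of them at the spread of the real libraries. A lack of calls therefore does not show equal cover. The moved genes had intermediate mean cover, and the noise had no upper limit as real cover has. The simulation therefore does not say what could be found at starts covered nearly whole. With 2 libraries against 2 an exact permutation test cannot go below p = 0.333.

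The 32 genes and the other lists were chosen with earlier results of these data known. Values in every library are given for genes past the adjusted p, for arms that do not overlap and differ by at least 10 points (H2AZ, H3K27ac) or 5 points (H3K36me3), for H3K9ac differences of at least 20 points, for starts with no H2AZ or H3K27ac peak in some library, and for a ChIRP peak at the start or at least 5 in the gene. Other values, such as those of ORC2, GINS2, CDC45 and MCM8, were chosen after they were seen. Alternatives were another filter, stricter peaks (−log10 q of at least 5), equal peak numbers, quantile normalization, a replicate block, other windows and leaving out each library.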

Additional observations from a re-analysis of the deposited data

How the results depend on the processing

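Of the summary results and alternatives run, 109 stayed within 1.5 times (counts) or the replicate spread (medians) and 23 moved. The spread was 7.05 points for H3K36me3, 3.12 for H2AZ and 0.39 for H3K27ac, and 1 point was used for H3K9ac. A median that changed sign could stay within it, and counts of 0 that stayed at 0 are among the 109. Of the values at single genes, 162 neither reversed nor crossed the threshold (H2AZ at ORC3 was 0 with 500 bp), 3 moved, 1 gained a call and 3 reversed. The reversals were H3K27ac at MCMBP (1.25 points) and RECQL4 (−10.3) with a window of 500 bp and H3K9ac at DBF4B (4.36) with 2500 bp; the cause was not tested. H3K27ac genes called numbered 0 with the replicate block, 20 with 500 bp, 7 with 2500 bp and 141 to 322 when 1 library was left out; 0 to 1 of the 32 were then called. The H3K27ac median over the 32 genes was 0.18 with quantile normalization, 0 with 500 bp, 0.44 over the 26 genes in the promoter table (chosen after seeing the data) and 0 to 1.05 with 1 library left out. H3K36me3 genes called numbered 93 with quantile normalization and 38 to 190 with 1 library left out, with 0 to 1 of the 32. For H3K9ac, 1 gene (RECQL4) differed by 20 points with 500 bp and 0 with 2500 bp, where the median was 2.05. At 50% cover or more, 17 genes had H3K36me3 in every library.

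Same-numbered libraries deviated together with correlations of 0.184 (H2AZ), 0.056 (H3K27ac) and 0.296 (H3K36me3), and the labels do not tie the numbers; the replicate block gave 0 calls for H2AZ and H3K36me3 too and none among the 32. Depth is unknown, and 2 libraries per arm limit what the fits can detect.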
